A study of Mus musculus with 15 samples.

Results

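The genes described here take up fatty acids and burn them in mitochondria, and they were measured in the femur of mice that flew on the International Space Station or stayed on the ground. They are 10 genes chosen by name, Fabp3, Cd36, Cpt1b, Acadvl, Acadl, Acadm, Hadha, Hadhb, Pdk4 and Ucp3. The accession on the array led to 13 probes for them, of 55681 probes and 21154 named genes in all, with a pair of probes each for Fabp3, Cpt1b and Ucp3. RNA of 15 male C57BL/6J mice, 9 weeks old by the labels, was hybridised with 1 array per mouse. By the study's methods 9 weeks is about the age at surgery, and the femurs were taken about 4 weeks after it. The sample carried the red dye Cy5 and a commercial reference RNA from mouse cell lines carried the green dye Cy3. G-Sham (4 mice) stayed on the ground without an operation and FLT-Sham (4 mice) flew without one. G-Surgery (4 mice) and FLT-Surgery (3 mice) carried a segmental defect of the femur, made days before launch and bridged with a graft, a pin and a saline-soaked collagen sponge. The ground mice were kept in the same kind of hardware but not at the same time as the flight mice, so flight and the time of the run cannot be told apart. The tissue is labelled callus in every group, although the sham mice had no defect and gave the same stretch of midshaft bone.

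A fatty acid enters the cell through transporters such as CD36 and is carried through the cytosol by small binding proteins such as FABP3. CPT1 on the outer mitochondrial membrane attaches it to carnitine, and acyl-CoA dehydrogenases of different chain-length preference start each round of shortening inside. The trifunctional protein, built from HADHA and HADHB, completes the round for long chains. PDK4 switches off pyruvate dehydrogenase and so favours fat over glucose as fuel. CPT1B and FABP3 are the forms of striated muscle, and the pathway as a whole is most active in heart, skeletal muscle and brown fat.

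Each value below is the log2 ratio of Cy5 to Cy3, so a value of 0 means as much signal as the reference RNA. Ratios rank no gene's level against another's, since each is relative to that gene in the reference, and where a difference between genes is taken on one array it is only set against the same difference on other arrays. Between 22.4% and 38.5% of probes passed the scanner's test against background in Cy5. The share was 23.1% to 32.9% of probes on G-Sham arrays, 26.6% to 38.5% on FLT-Sham, 25.7% to 37.2% on G-Surgery and 22.4% to 25.6% on FLT-Surgery arrays. The lowest share was on a FLT-Surgery array and the highest on a FLT-Sham array, while G-Sham and FLT-Surgery overlapped, and the part of this brightness in the results below was not tested. The cut-off follows the study's, a fold change of at least 2 with a p of at most 0.01, taken here as the unadjusted p of limma. No member probe reached an adjusted p of 0.05 in any comparison as fitted here, while some did in other fits given below. FLT-Sham replicate 8 was the lowest FLT-Sham array in 9 of the 10 genes at the brightest probe, and results that rest on it are given with and without it. 

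**Figure D1:**
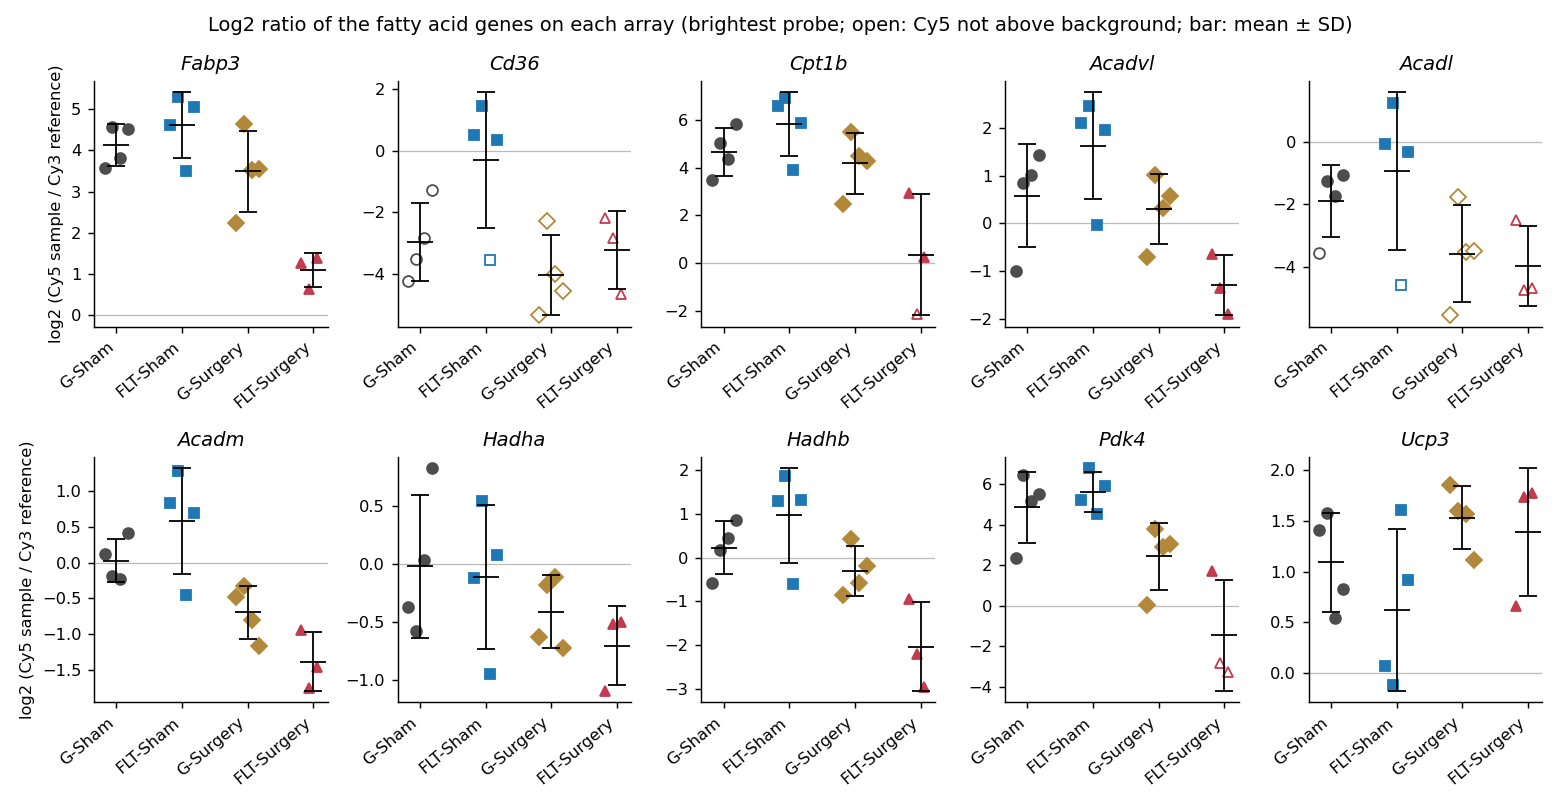
Log2 ratio of Cy5 sample to Cy3 reference (vertical axes) of each gene at its brightest probe in the 4 groups. Each point is 1 mouse, open points were not above background in Cy5, and bars give mean ± SD. Fabp3 in FLT-Surgery lies between 0.64 and 1.40, below every other array.

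Fabp3 binds fatty acids in the cytosol of muscle. Its brighter probe, A_55_P2033780, read 3.57, 4.58, 3.82 and 4.53 in G-Sham and 4.61, 5.29, 3.49 and 5.06 in FLT-Sham. It read 2.24, 4.64, 3.52 and 3.56 in G-Surgery and 1.27, 0.64 and 1.40 in FLT-Surgery. All 3 FLT-Surgery arrays lay below all other arrays, and the Sham groups overlapped. FLT-Surgery was lower than G-Surgery by a log2 difference of -2.38 ± 0.54 (SE), which is 5.21-fold, past the cut-off with an adjusted p of 0.258 in limma. The second probe, A_55_P1974367, differed by -2.62 ± 0.54 (6.15-fold, adjusted p = 0.218 in limma). Against FLT-Sham the differences were -3.51 ± 0.51 and -3.72 ± 0.52, and both passed the cut-off (adjusted p = 0.0736 for each in limma). Within the slide that held 2 FLT-Surgery and 3 G-Surgery arrays the brighter probe differed by -2.09, and within the slide with 1 of each by -3.37. Without FLT-Surgery replicate 3 the brighter probe no longer passed, at -2.15, while the second did at -2.44.

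Cd36 is the membrane receptor that admits long-chain fatty acids. Its single probe was at 0.53, 1.46 and 0.34 in FLT-Sham replicates 4, 6 and 9 and at -3.53 in replicate 8. It lay between -4.23 and -1.27 in G-Sham, between -5.34 and -2.28 in G-Surgery and between -4.64 and -2.19 in FLT-Surgery. Only the 3 high FLT-Sham arrays were well above background, so every other group has no more than a bound. By that bound FLT-Sham was at least 3.87-fold above G-Sham (adjusted p = 0.514 in limma) and at least 3.69-fold above FLT-Surgery (adjusted p = 0.194 in limma), and neither passed the cut-off. These bounds come from the Cy5 channel after Aquantile normalization between arrays, with each dim array set to the higher of its own signal and the lowest signal well above background, and without a dye swap they are open to dye bias. Cd36 entered both tests through the 3 high FLT-Sham arrays alone, so its difference is partly set by the filter. It also passed the cut-off without FLT-Sham replicate 8, its low array, but against groups with no array above background.

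Cpt1b is the muscle form of carnitine palmitoyltransferase 1, the gate to mitochondrial oxidation. Its brighter probe, A_55_P1956882, read 3.47, 5.01, 4.34 and 5.81 in G-Sham and 6.57, 6.91, 3.91 and 5.86 in FLT-Sham. It read 2.46, 5.51, 4.47 and 4.27 in G-Surgery and 2.93, -2.13 and 0.25 in FLT-Surgery. FLT-Surgery lay below all sham arrays but its replicate 1 overlapped G-Surgery, and replicate 3 was not above background. The difference between FLT-Surgery and G-Surgery was -3.83 ± 1.18, which missed the cut-off (adjusted p = 0.28 in limma) and ranged from -4.93 to -1.29 under other settings that kept all arrays. Against FLT-Sham it was -5.46 ± 1.21, past the cut-off (adjusted p = 0.136 in limma).

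The second Cpt1b probe, A_55_P2039210, did not repeat every feature of the first. It read 3.35, 3.79, 3.90 and 4.85 in G-Sham and 6.15, 6.27, 5.89 and 5.38 in FLT-Sham, with no overlap. FLT-Sham replicate 8 was thus among the high arrays here and the lowest FLT-Sham array at the brighter probe. Sham flight and ground mice differed by 1.95 ± 0.40 (3.86-fold, adjusted p = 0.348 in limma), past the cut-off, while the brighter probe differed by 1.16 ± 0.74 and did not pass. In FLT-Surgery the second probe read 3.51, 0.61 and 1.39, against 1.95, 4.61, 3.77 and 3.74 in G-Surgery, and these groups overlapped. The difference between them was -1.68 ± 0.83, smaller than at the brighter probe and outside the cut-off (adjusted p = 0.338 in limma). Against flight without surgery the second probe was past the cut-off, and it differed from FLT-Sham by -4.09 ± 0.68 (adjusted p = 0.0856 in limma).

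Acadvl, Acadl and Acadm encode the dehydrogenases for very long, long and medium chains. Acadvl read -1.0, 0.85, 1.01 and 1.44 in G-Sham, 2.11, 2.46, -0.03 and 1.95 in FLT-Sham, -0.70, 1.02, 0.33 and 0.57 in G-Surgery, and -0.64, -1.35 and -1.90 in FLT-Surgery. The 3 FLT-Surgery arrays lay below all FLT-Sham arrays and overlapped with 1 G-Surgery array. Acadvl was lower in FLT-Surgery than in FLT-Sham by a log2 difference of -2.92 ± 0.66 (7.57-fold, adjusted p = 0.136 in limma), past the cut-off, and lower than in G-Surgery by -1.60 ± 0.48, just outside it (adjusted p = 0.28 in limma). Acadm read 0.12, -0.19, -0.23 and 0.42 in G-Sham, 0.83, 1.28, -0.46 and 0.70 in FLT-Sham, -0.48, -0.33, -0.81 and -1.17 in G-Surgery, and -0.94, -1.76 and -1.46 in FLT-Surgery. Both surgery groups lay below all G-Sham arrays. FLT-Surgery differed from FLT-Sham by -1.97 ± 0.49 (3.93-fold, adjusted p = 0.14 in limma), past the cut-off, but 8 of its 18 other settings took it out, among them slide as a block (-1.91). G-Surgery differed from G-Sham by -0.73 ± 0.28, which is under a 2-fold change.

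Acadl was dim. It was above background in 3 of 4 G-Sham and 3 of 4 FLT-Sham arrays and in no surgery array. The readings above background lay between -1.73 and -1.04 in G-Sham and between -0.31 and 1.26 in FLT-Sham, and FLT-Sham replicate 8 read -4.58. As bounds, G-Sham was at least 2.26-fold above G-Surgery (adjusted p = 0.493 in limma) and FLT-Sham at least 4.32-fold above FLT-Surgery (adjusted p = 0.209 in limma), and neither passed the cut-off. Acadl entered both tests through the sham arrays alone, so these differences are partly set by the filter. For Acadl as for Cd36, the adjusted p belongs to the log2 ratio and not to the bound. The surgery groups could not be compared with each other for Acadl or Cd36.

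Hadha and Hadhb encode the alpha and beta subunits of one enzyme complex and lie head to head in the genome. By the RefSeq promoter table (GRCm38.p6) their start sites are 273 bases apart on chromosome 5, and 228 bases belong to the upstream windows of both. The 250 bases before the start of Hadhb, chr5:30155003-30155252 on the plus strand, are shown because one stretch of DNA lies upstream of both genes while their ratios did not move alike. Capitals mark the GC box GGGCGG, searched on both strands.

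Hadhb: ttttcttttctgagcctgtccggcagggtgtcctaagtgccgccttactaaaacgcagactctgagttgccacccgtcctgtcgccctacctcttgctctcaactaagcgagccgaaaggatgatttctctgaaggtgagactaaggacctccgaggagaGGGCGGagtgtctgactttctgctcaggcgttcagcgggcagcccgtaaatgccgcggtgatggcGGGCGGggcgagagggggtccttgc

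Hadhb read -0.58, 0.17, 0.44 and 0.86 in G-Sham, 1.29, 1.85, -0.61 and 1.32 in FLT-Sham, -0.86, 0.43, -0.59 and -0.20 in G-Surgery, and -0.94, -2.19 and -2.95 in FLT-Surgery. All 3 FLT-Surgery arrays lay below all others. The difference from FLT-Sham was -2.99 ± 0.72 (7.92-fold, adjusted p = 0.136 in limma), past the cut-off, and that from G-Surgery was -1.72 ± 0.53, just outside it (adjusted p = 0.28 in limma). Of 18 other settings 3 took the difference from FLT-Sham out, slide as a block and leaving out FLT-Surgery replicate 3 or 5. Hadha read -0.37, -0.58, 0.03 and 0.83 in G-Sham, -0.12, 0.54, -0.95 and 0.08 in FLT-Sham, -0.63, -0.18, -0.11 and -0.73 in G-Surgery, and -1.10, -0.52 and -0.50 in FLT-Surgery. These 4 groups overlapped throughout, and no Hadha difference passed the cut-off. The 95% interval of the Hadha difference between FLT-Surgery and FLT-Sham ran from -1.63 to 0.44, and its sign turned to 0.22 after a further loess and to 0.04 after normexp. Hadhb minus Hadha on the same array was 1.08 ± 0.49 (SD, n = 4) in FLT-Sham, 0.24 ± 0.42 (SD, n = 4) in G-Sham, 0.11 ± 0.54 (SD, n = 4) in G-Surgery and -1.32 ± 1.34 (SD, n = 3) in FLT-Surgery. The FLT-Surgery values were 0.16 in replicate 1, -1.67 in replicate 3 and -2.45 in replicate 5. This pair was singled out after its values were seen and the difference between the genes is given with no test. Each gene has 1 probe, so a gene and its probe cannot be told apart.

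**Figure D2:**
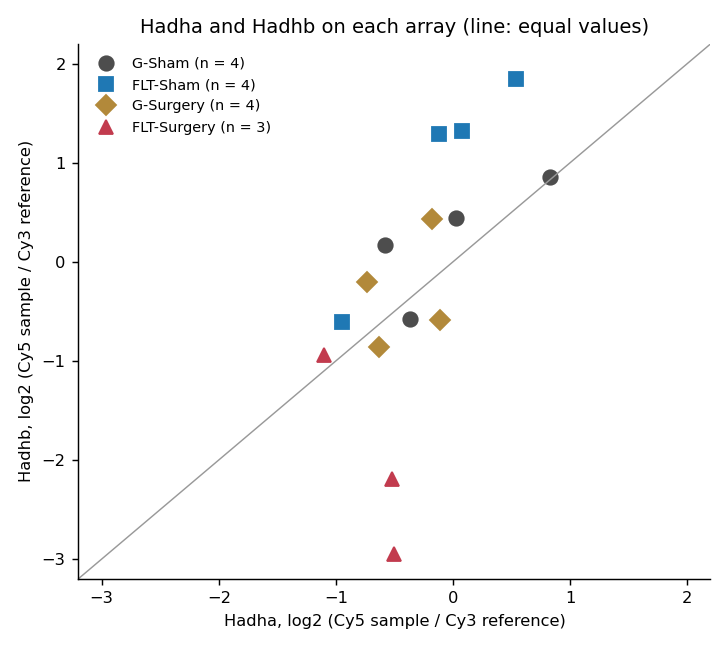
Log2 ratio of Cy5 to Cy3 of Hadha (horizontal) and Hadhb (vertical) on the 15 arrays, 1 point per mouse, with the line of equal ratios as a guide. Hadha spans -1.10 to 0.83 while Hadhb spans -2.95 to 1.85, and the lowest 2 points are FLT-Surgery replicates 3 and 5.

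Pdk4 encodes the kinase that spares glucose. It read 2.38, 6.46, 5.16 and 5.5 in G-Sham, 5.24, 6.81, 4.51 and 5.93 in FLT-Sham, 0.02, 3.81, 2.91 and 3.05 in G-Surgery, and 1.71, -2.82 and -3.26 in FLT-Surgery. Replicates 3 and 5 of FLT-Surgery were not above background, and all 3 arrays lay below all FLT-Sham arrays. FLT-Surgery differed from FLT-Sham by -7.08 ± 1.2 (adjusted p = 0.0884 in limma), past the cut-off. Because only 1 of the 3 FLT-Surgery arrays measured Pdk4 above background, the size of this difference is uncertain, and with normexp and loess it was -3.78. It differed from G-Surgery by -3.91 ± 1.36, outside the cut-off (adjusted p = 0.28 in limma), with replicate 1 inside the range of G-Surgery. G-Surgery differed from G-Sham by -2.43 ± 1.03 (adjusted p = 0.446 in limma), and without G-Sham replicate 1 this was -3.26 and past the cut-off. Within slides the surgery difference on the ground was -4.47 on one slide and -0.13 on the other.

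Ucp3 encodes an uncoupling protein of muscle mitochondria. Its 2 probes did not move together. The brighter, A_66_P108247, read 1.41, 1.58, 0.54 and 0.83 in G-Sham, 0.07, -0.12, 1.61 and 0.92 in FLT-Sham, 1.85, 1.60, 1.57 and 1.11 in G-Surgery, and 0.66, 1.74 and 1.77 in FLT-Surgery. These groups overlapped and no difference passed the cut-off, and the one between the surgery groups (-0.14) changed sign in 4 other settings. The dimmer, A_52_P380379, was above background on FLT-Sham replicates 4, 6 and 9 alone, at 4.06, 4.94 and 3.64. It was listed at exactly 0 on 6 other arrays, where the deposited ratio carries no measurement. No size of difference is given for it, because the FLT-Sham mean did not exceed the floor set by the other groups.

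The upstream windows of Ucp3 and Cd36 are printed because they alone, among the 9 genes with a window in the table, hold a match to DR1. DR1 is a pair of nuclear receptor half-sites spaced by 1 base, AGGTCANAGGTCA, the layout bound by PPAR with RXR. It was searched on both strands with at most 2 mismatches, and 3.24% of the 32851 windows in the table hold such a match. The half-site AGGTCA alone lies in 4 of the 9 windows and in 14% of all. GGGCGG lies in 4 of the 9 and in 32.7% of all, and the estrogen-related receptor element TCAAGGTCA in none of the 9 and in 0.387% of all. Matches of the half-site can overlap with those of DR1. Capitals mark the half-site, DR1 and the GC box, and a match describes letters, not binding. The Ucp3 stretch is chr7:100472741-100472990 on the plus strand and the Cd36 stretch chr5:17835897-17836146 on the minus strand (GRCm38.p6, RefSeq), both 5′ to 3′ along the gene.

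Ucp3: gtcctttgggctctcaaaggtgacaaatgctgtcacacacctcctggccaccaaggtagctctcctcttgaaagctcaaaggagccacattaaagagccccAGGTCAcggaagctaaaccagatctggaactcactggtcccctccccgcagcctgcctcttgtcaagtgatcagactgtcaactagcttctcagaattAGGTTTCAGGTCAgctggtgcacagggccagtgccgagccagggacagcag
Cd36: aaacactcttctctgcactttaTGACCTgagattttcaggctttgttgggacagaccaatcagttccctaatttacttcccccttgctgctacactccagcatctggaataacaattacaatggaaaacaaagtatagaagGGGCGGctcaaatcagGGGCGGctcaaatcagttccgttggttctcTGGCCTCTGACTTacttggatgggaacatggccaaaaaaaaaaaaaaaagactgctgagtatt

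Spaceflight without surgery was addressed by FLT-Sham against G-Sham. All 13 probes could be tested, and 1 passed the cut-off, the second Cpt1b probe, which was higher in flight. Of all 19739 probes tested, 2% passed, 1.79% in the higher direction, and 3.64% had every FLT-Sham array above every G-Sham array, as 1 member probe did. At the brightest probe 8 of the 10 genes had a positive difference, with a median of 0.74 beside 0.24 over all probes. The count of 8 was the same after a further loess, normexp and loess, and with Cy5 alone, where the median over all probes was -0.13, -0.08 and 0.10. Of all calls 89.6% were higher here, and 65.2%, 30.3% and 75.1% under those 3 scalings. Without FLT-Sham replicate 8, 3 member probes passed, of Cd36, Cpt1b and Ucp3, while the share over all probes rose to 10.7%, and the Cd36 and Ucp3 probes had entered the test through FLT-Sham alone. Adipocyte markers moved in the same comparison, with 3 of 7 past the cut-off and higher in flight and a median of 2.71. Those 3, Plin1, Cidec and Cidea, could not be tested between the ground groups, where too few arrays were above background. They entered this test only with FLT-Sham, so their differences are partly set by the filter. The part of adipocytes was not tested.

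Spaceflight after surgery was addressed by FLT-Surgery against G-Surgery. Of the 10 probes that could be tested, for 8 genes, both Fabp3 probes passed the cut-off and were lower in flight. Among all 16548 probes 3.14% passed and 2.09% in the lower direction. All 8 genes had a negative difference, with a median of -1.66 beside -0.20 over all probes. Under a further loess and under normexp 6 of 8 were negative, and with Cy5 alone 7 of 8, while the median of the 8 minus that of all probes was -1.51, -0.74 and -1.53, against -1.46 here. Of all calls 33.3% were higher, and 94.8%, 82.7% and 74.9% under those 3 scalings, so the split of calls over the array is set by the scaling. The groups did not overlap at 3 member probes, both of Fabp3 and that of Hadhb, and at 7.54% of all probes in the same direction. The study had itself listed Fabp3 and Cpt1b from these samples, so their direction here is not independent evidence. With slide as a block 6 member probes passed, adding Cpt1b, Acadvl, Hadhb and Pdk4, beside 7.8% of all probes. Without FLT-Surgery replicate 1 there were 7 beside 12.7% of all probes, 4 of the 7 with an adjusted p under 0.05 in limma. Without G-Surgery replicate 1 there were 5 beside 2.35%.

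**Figure D3:**
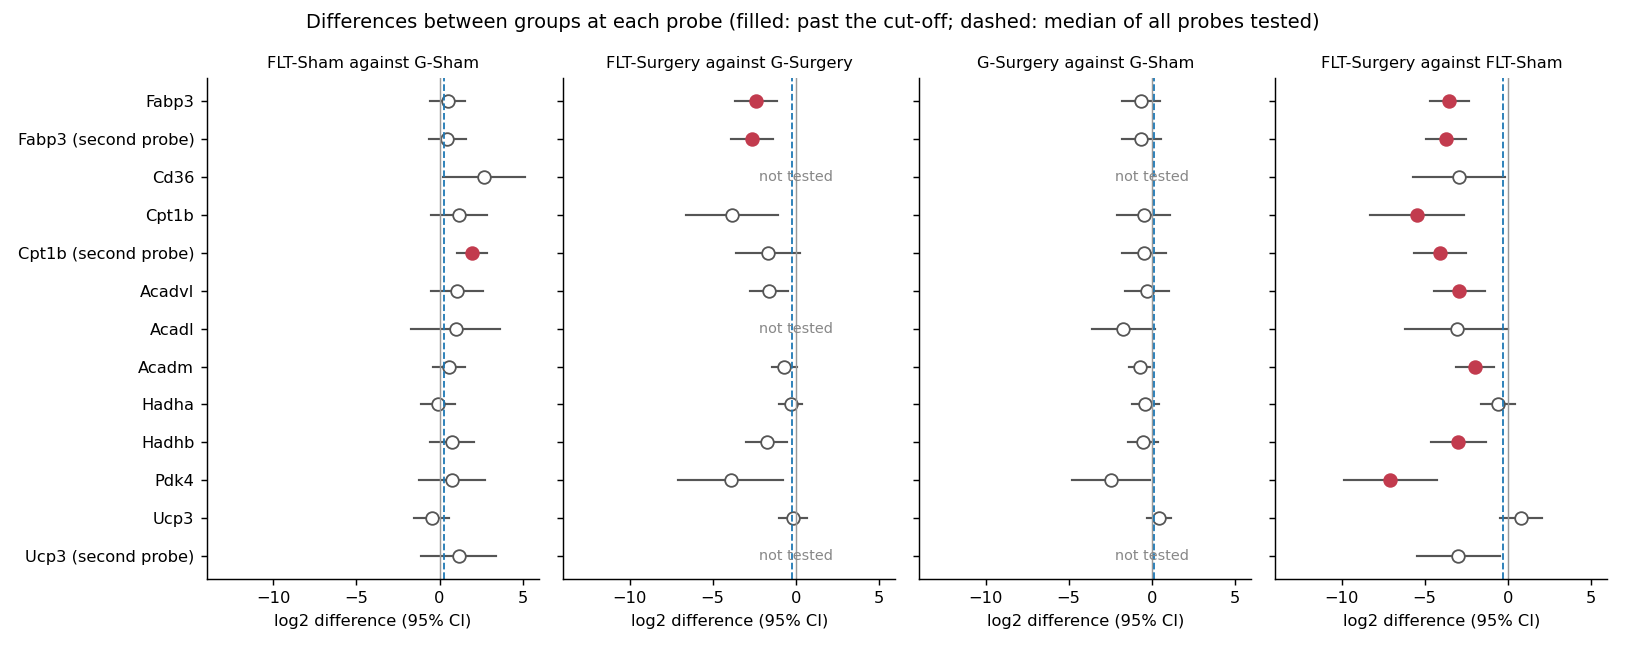
Log2 difference (horizontal axes) with its 95% interval from limma for the 13 probes in 4 comparisons, filled where past the cut-off, with the median of all probes tested as a dashed line. The last panel holds 8 filled points, from -7.08 for Pdk4 to -1.97 for Acadm, and the third holds none.

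Surgery was addressed on the ground and in flight. For G-Surgery against G-Sham none of 11 member probes passed the cut-off, beside 2.59% of all 17675 probes, and 2 had an unadjusted p under 0.05 in limma, those of Acadm and Pdk4. The median over 9 genes was -0.52 beside 0.14 over all probes, and 8 of the 9 were negative, as they were under each of the 3 scalings named. Of all calls 80.3% were higher, and 56.9%, 40% and 57.9% under those scalings. On the slide with 3 G-Surgery arrays and 1 G-Sham array 9 of 10 genes were lower after surgery, and on the slide with 1 and 2 arrays 3 of 10 were. The 10 take in Cd36, which was not tested here and was above background on no array of these groups. Acadl, among the 9 as well as the 10, was above it on no G-Surgery array.

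For FLT-Surgery against FLT-Sham all 13 probes were tested and 8 passed, all lower, for Fabp3, Cpt1b, Acadvl, Acadm, Hadhb and Pdk4. Of all 19136 probes 6.65% passed and 6.22% in the lower direction. The groups did not overlap at these 8 probes, and at 10.6% of all probes in that direction. The median over the 10 genes was -2.95 beside -0.28 over all probes. The difference of the medians was -2.67, and -2.47, -1.32 and -2.59 after a further loess, normexp and with Cy5 alone. Ucp3 at its brighter probe (0.77 ± 0.54) was the one positive gene of the 10, and under a further loess and under normexp Hadha was positive as well. Of all calls 6.37% were higher, and 51.7%, 33.1% and 21.4% under the 3 scalings. Without FLT-Surgery replicate 3, or without replicate 5, 5 probes passed, those of Fabp3, Cpt1b and Pdk4. Without FLT-Sham replicate 8, 11 passed, each with an adjusted p under 0.05 in limma, but 26.2% of all probes passed as well. The Cd36, Acadl and dimmer Ucp3 probes among the 11 had entered the test through FLT-Sham alone.

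Whether surgery acted differently in flight was tested as an interaction over all 15 arrays. The probes of Fabp3 (-2.87 ± 0.75 and -3.08 ± 0.76) and of Cpt1b (-4.99 ± 1.46 and -3.63 ± 0.93) passed the cut-off, so 4 of 13, beside 5.33% of all 21777 probes and 4.97% in the lower direction. Their adjusted p-values in limma lay between 0.168 and 0.172. Hadhb (-2.46 ± 0.83, adjusted p = 0.188 in limma) and Acadvl (-2.65 ± 0.92, adjusted p = 0.191 in limma) lay just outside. Of all calls 6.72% were higher, and 74%, 53.9% and 30.7% under the 3 scalings. After a further loess, and after normexp, the Fabp3 probes still passed and those of Cpt1b did not. The comparisons share groups, and so the interaction is no separate evidence beside them.

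The rest of the pathway was read from 10 lists with 70 genes, all on the array. In FLT-Surgery against G-Surgery 45 of the 70 could be tested and 3 were past the cut-off, all lower, beside 3.14% of all probes and 2.09% in the lower direction. They were Cpt2 (-1.64 ± 0.43), the second carnitine transferase, Decr1 (-1.40 ± 0.34), which handles unsaturated chains, and Angptl4 (-1.16 ± 0.31), a PPAR target that inhibits lipoprotein lipase. The median over the 45 was -0.82, beside -0.2 over all probes. In the mitochondrial oxidation list 1 of 9 tested genes passed, with a median of -0.89, and in the carnitine shuttle 1 of 2. Among genes of uptake none of 6 passed, and the median was 0.08. Lpl (-2.37 ± 0.95) and Fabp4 (-3.24 ± 1.84), which serve the entry of lipid into adipocytes and muscle, did not pass.

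In FLT-Surgery against FLT-Sham 17 of 54 tested genes were past the cut-off, all lower, beside 6.65% of all probes and 6.22% in the lower direction. The median was -1.69, beside -0.28 over all probes. Mitochondrial oxidation gave 4 of 13 (Acaa2, Decr1, Etfa and Etfdh), the triglyceride store 4 of 6 (Mgll, Plin5, Dgat1 and Dgat2) and the malonyl-CoA enzymes 2 of 3 (Acacb and Mlycd). Acsl1, which activates long chains, differed by -5.66 ± 1.01. Among regulators 2 of 9 passed at the brightest probe, Ppargc1a (-2.17 ± 0.60) and Prkaa2 (-5.90 ± 0.61, adjusted p = 0.0397 in limma), the catalytic subunit of AMP-activated kinase in muscle. The carnitine shuttle gave 1 of 2 (Cpt2), fuel switch genes 2 of 5 (Pdk2 and Pdp1) and ketone bodies 0 of 3. Prkaa2, Etfdh, Plin5, Dgat1 and Pdp1 could not be tested between the surgery groups, since too few of those arrays were above background. They entered this test only with the FLT-Sham arrays, so their differences are partly set by the filter and their sizes are uncertain.

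The other comparisons moved few of these genes. In FLT-Sham against G-Sham 1 of 55 was higher at its brightest probe, Mgll (1.55 ± 0.42), and 1 lower, Rxra (-1.44 ± 0.42), beside 2% of all probes past the cut-off. The median over the 55 was 0.81, beside 0.24 over all probes. In G-Surgery against G-Sham 2 of 52 were higher, Fabp5 (1.21 ± 0.36) and Angptl4 (1.41 ± 0.34), and none lower, beside 2.59% of all probes past the cut-off. Angptl4 thus had a positive difference after surgery on the ground and a negative one between flight and ground after surgery. Its G-Surgery arrays, at 0.39 to 0.99, lay above all arrays of the other groups, of which the highest was at 0.24. In the interaction 6 of 55 passed, all lower, for Cpt2, Decr1, Etfa, Mgll, Dgat1 and Prkaa2. Over all probes 5.33% passed, 4.97% in the lower direction. Dgat1 and Prkaa2 could not be tested between the surgery groups, where too few arrays were above background.

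**Figure D4:**
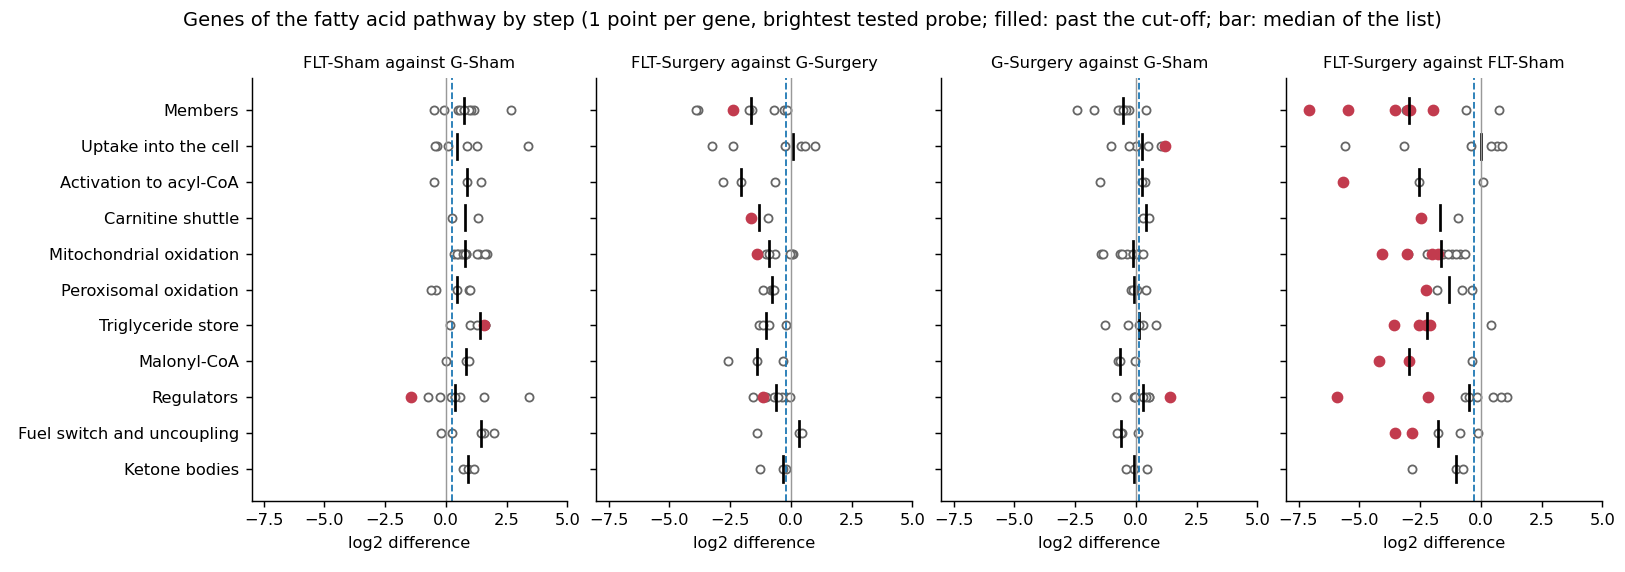
Log2 difference (horizontal axes) of each tested gene at its brightest tested probe, by step of the pathway, in 4 comparisons. Filled points passed the cut-off, bars are the medians of the lists and the dashed line is the median of all probes. The uptake list in the second panel has its median at 0.08, above that of all probes at -0.20.

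Skeletal muscle lies against the femur and uses these genes most, so 20 markers of muscle fibres were read beside them. Of the 20, 14 to 20 were above background on each array. Their summed Cy5 signal ranged from 900000 to 4800000 in G-Sham, from 1430000 to 14300000 in FLT-Sham, from 701000 to 3520000 in G-Surgery and from 261000 to 2600000 in FLT-Surgery. Ckm and Mb were above background on 14 and 13 of the 15 arrays, Acta1 on all, and none of the 20 was below background everywhere. Over the 15 arrays the mean log2 ratio of the 10 genes and that of the 20 markers had a Pearson r of 0.97 and a Spearman rho of 0.97, and r was 0.94 without the 2 arrays farthest from the median of the markers. The points share array, dye factors and brightness, and the groups are pooled in this description. In each group the array with the highest muscle mean had the highest mean of the 10 genes. The array with the lowest muscle mean had the lowest mean of the 10 in G-Sham (replicate 1), FLT-Sham (replicate 8) and G-Surgery (replicate 1), and in FLT-Surgery replicates 3 and 5 were level at -1.60.

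**Figure D5:**
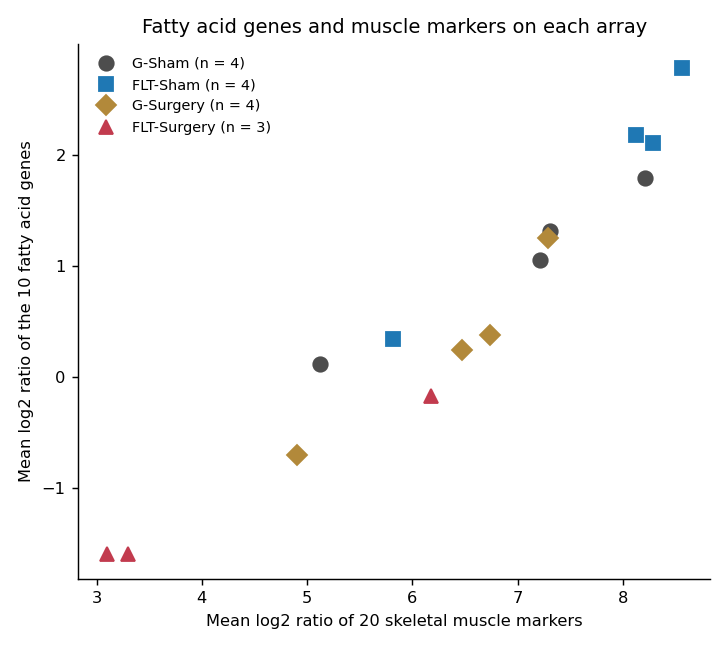
Mean log2 ratio of the 20 skeletal muscle markers (horizontal) and of the 10 fatty acid genes (vertical) on the 15 arrays, 1 point per mouse. The 2 lowest points are FLT-Surgery replicates 3 and 5, both at -1.60 on the vertical axis, and the highest is FLT-Sham replicate 6 at 2.78.

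The median difference of the muscle markers was -1.80 between FLT-Surgery and G-Surgery, where 1 of 17 passed the cut-off (Myh2, lower), and -4.10 between FLT-Surgery and FLT-Sham, where 7 of 20 passed, all lower. In that comparison 6 of 7 adipocyte markers (median -4.17) and 5 of 5 erythroid markers (median -4.75) passed as well, all lower, beside 6.22% of all probes. Only 1 to 3 of the 8 genes of each of these 2 lists were above background on FLT-Surgery arrays. Most of these markers thus entered the test through FLT-Sham, and their sizes are partly set by the filter. Between FLT-Sham and G-Sham the muscle median was 0.79 with 0 of 20 past the cut-off, and between G-Surgery and G-Sham -0.28 with 0 of 18. The mean of the 10 genes minus that of the 20 markers ranged from -6.42 to -5.00 in G-Sham, from -6.18 to -5.48 in FLT-Sham, from -6.36 to -5.60 in G-Surgery and from -6.35 to -4.70 in FLT-Surgery, and the ranges overlapped. In RNA of whole bone pieces, fewer muscle cells and less RNA per muscle cell cannot be told apart, and the part of muscle in the differences above was not tested.

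Other cell types were read from 6 further marker lists. The erythroid mean (8 genes) had an r of 0.92 with the mean of the 10 genes, the adipocyte mean (8 genes) 0.87, endothelial 0.69, osteoblast and osteocyte 0.56, chondrocyte 0.30 and monocyte and macrophage 0.20, each over 15 arrays. Adipocyte markers had a summed Cy5 signal of 8340 to 43200 in FLT-Sham, above the 995 to 3980 in FLT-Surgery and the 1770 to 5130 in G-Surgery, and 1740 to 13300 in G-Sham. Lep was below background on all arrays, and Adipoq was above it on 4. Erythroid markers summed to 23300 to 138000 in FLT-Sham and 2760 to 17100 in FLT-Surgery, with 13000 to 24200 in G-Sham and 1940 to 10300 in G-Surgery. Klf1 and Epb42 were below background on all arrays. Of 11 bone cell markers 3 to 7 were above background on each array, Col1a1 and Col1a2 on all 15, while Sp7, Dmp1, Phex and Sost were below it on all. Of 6 cartilage markers 1 to 3 were above background, and Sox9, Col10a1 and Matn3 were below it on all arrays. The part of these cell types was not tested.

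The genes most like the 10 were sought among 5078 probes above background on all 15 arrays, by the Pearson correlation of log2 ratios over those arrays. The mean of the 6 members measured throughout lay closest to Golga4 (r = 0.98), Ppm1b (0.97), Atp5a1, Hspb2 and Fam220a (0.96 each). Acadvl was most like Sdhb, Macrod1, Acaa2, Slc25a11 and Uqcrc2 (0.99 each), Hadhb like Golga4 and Trp53inp2 (0.98 each), and Fabp3 like Flnc (0.97) and Golga4 (0.95). Acadm was closest to Ppm1b and Sccpdh (0.94 each). Hadha had no gene closer than Myh14 (0.78), and the genes closest to the brighter Ucp3 probe, among them Sqle and Asns (0.95 each), were other genes than those of the rest. The median correlation over all candidate probes lay between -0.10 and 0.15 for these targets.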

How the data were processed

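Femur RNA of 15 mice was hybridised to Agilent mouse two-colour arrays. Per the file headers and labels, Agilent Feature Extraction 12.0 made the deposited signal intensities and background tests, and the deposited log10 ratio of Cy5 over Cy3 after background subtraction and linear and lowess dye normalization. The study reports low RNA integrity and proposes that a cycle of freezing and thawing lowered it further, and no dyes were swapped. The part of RNA integrity where probes disagree was not tested. Here the log10 ratios were turned into log2, control and outlier spots left out and spots of a probe averaged, with no further normalization. A probe was tested where Cy5 was well above background on at least 3 of the arrays compared. Each comparison was fitted with limma 3.58.1 (R 4.3.3) on its own arrays, the interaction on all 15. The cut-off was a fold change of 2 at an unadjusted p of 0.01, and Benjamini-Hochberg adjusted values cover all probes tested. The normexp alternative used median signals, since no mean signal was in the files. Of the pathway lists, genes past the cut-off are named, with the values of those described, and of the markers the defining ones. One result of the pathway lists is not reported here. Lpl, Fabp4, Angptl4's levels and the pair Hadha and Hadhb were picked after their values were seen. The genes and lists were chosen with earlier results of these data known. The methods were tested on simulated data. The number of arrays limits the precision. Replicates are separate mice, and p-values measure the spread between them.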

Additional observations from a re-analysis of the deposited data

Results flagged for a closer look

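The test of whether the surgery difference was another one in flight than on the ground passed the cut-off for Fabp3, at -2.87 and -3.08 for its probes, and for Cpt1b, at -4.99 and -3.63. The dimmer Ucp3 probe read 1.08 in G-Surgery replicate 5 while the other 3 arrays of the group were listed at 0, none of them above background. The 3 values of 0 carry no measurement, and beside them any other value stands apart, so nothing is read from it. It was the 1 such array in 39 groups of 4 arrays, and chance gives about 1 in 20.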

How the results depend on the processing

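Of 1186 values of single probes under other settings, 1078 kept direction and side of the cut-off, 28 lost it, 56 gained it and 24 changed sign. FLT-Sham against G-Sham gave 1 probe, and 0 after a further loess, normexp or an adjusted p of 0.05. It gave 5 with array weights (19.5% of all probes), 2 with ratios of exactly 0 set to missing (chosen after seeing the data), and 1 to 3 when single arrays were left out. FLT-Surgery against G-Surgery gave 2, and 4 with both channels above background (4.36% of all probes) or all 15 arrays in one fit (3.35%). It gave 6 with slide as a block (7.8%) or array weights (10.3%), 0 by adjusted p and 1 to 7 without single arrays. G-Surgery against G-Sham gave 0, 1 with no filter and 0 to 1 without single arrays. FLT-Surgery against FLT-Sham gave 8, 6 with slide as a block (2.87% of all probes), 5 with both channels above background, 0 by adjusted p in the main fit and 5 to 11 without single arrays. It gave 9 with all 15 arrays in one fit (8 at an adjusted p of 0.05) and 12 with array weights (1 of them higher, and 12 at that adjusted p), where 13.6% and 44.5% of all probes passed. The interaction gave 4, 2 after loess or normexp, 8 with array weights (26.2% of all probes), 0 by adjusted p and 3 to 8 without single arrays. It gave 8 without FLT-Sham replicate 8 (17.5% of all probes) and 7 without G-Surgery replicate 1 (4.34%). The cause of these shifts was not tested.

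With the replicate number as a replicate block, FLT-Surgery against G-Surgery gave 0 probes, G-Surgery against G-Sham 2 and the interaction 0. The numbers are animal numbers that do not pair the mice, and same-numbered deviations correlated between -0.61 and 0.34. The other comparisons share under 2 numbers and were not run.

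Signs changed as follows. Hadha turned to 0.21 with array weights and ranged from -0.31 to 0.19 without single arrays in FLT-Sham against G-Sham, turned to 0.36 after loess and 0.05 after normexp in FLT-Surgery against G-Surgery, to 0.22 and 0.04 in FLT-Surgery against FLT-Sham, and in the interaction to 0.79 after loess, 0.21 after normexp, 0.12 with Cy5 alone and 0.03 with the replicate block, with -0.49 to 0.01 without single arrays. The brighter Ucp3 probe turned to 0.32 after loess, 0.09 with Cy5 alone and 0.07 with array weights in FLT-Surgery against G-Surgery, where it ranged from -0.33 to 0.22 without single arrays, and Acadm to 0.01 after normexp. In the interaction Acadl turned to 0.23 after loess and the dimmer Ucp3 probe to 0.23 with Cy5 alone. Without single arrays Pdk4 ranged from -0.08 to 1.28 in FLT-Sham against G-Sham, and in G-Surgery against G-Sham Cpt1b from -0.92 to 0.09 and -0.82 to 0.06 at its probes and Acadvl from -0.79 to 0.07.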
